A study of Mus musculus with 12 samples.

Results

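The tricarboxylic acid cycle genes described here are 9 genes of the mitochondrial matrix, taken by symbol from tables of 24343 genes. They are Cs, Idh3a, Idh3b, Idh3g, Ogdh, Dlst, Suclg1, Fh1 and Mdh2, and all 9 were found and reached the minimum FPKM set for testing. The 12 RNA-seq libraries came from HT22, an immortalized neuronal line of the mouse hippocampus, and form 4 groups of 3 biological replicates. Cells of the siControl group received a control siRNA and no iron chelator. Cells of the siNCOA4 group received an siRNA to Ncoa4, which encodes the receptor that carries ferritin to the lysosome for iron release. They also received no chelator. The siControl+DFO and siNCOA4+DFO groups received the same siRNAs and were deprived of iron with the chelator DFO, 100 µM over 24 h. All 4 groups are therefore the same line treated with an siRNA, and any result rests on that 1 line. Values are FPKM, fragments scaled to length and to the size of the library, so levels can be compared between genes per unit of length. The exact formula is not given in the sources used here.

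The cycle oxidizes the acetyl group of acetyl-CoA in the mitochondrial matrix and passes the electrons to NADH and to ubiquinone. Citrate synthase opens it, isocitrate dehydrogenase and the 2-oxoglutarate dehydrogenase complex release carbon dioxide, succinyl-CoA ligase makes a nucleotide triphosphate, and fumarase and malate dehydrogenase close it. Iron enters through enzymes that hold iron-sulfur clusters, among them succinate dehydrogenase, whereas none of the 9 genes described here encodes a protein known for such a cluster. Neurons depend strongly on this pathway for ATP and for precursors of glutamate.

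The knockdown was checked first. Ncoa4 lay at 6.46, 6.19 and 6.02 FPKM in siControl and at 0.77, 0.95 and 0.89 FPKM in siNCOA4, a log2 change of -2.71 (SE 0.21, limma adjusted p = 1.25e-05). With DFO it lay at 8.70, 8.31 and 7.52 FPKM in siControl+DFO and at 0.85, 1.29 and 1.57 FPKM in siNCOA4+DFO. The knockdown was thus seen in every siNCOA4 library. Tfrc, the transferrin receptor gene that rises when iron is low, was 2.22 higher on the log2 scale in siControl+DFO than in siControl (SE 0.09, limma adjusted p = 3.08e-09). Of 10 neuron markers, 3 reached 0.5 FPKM in some library, among them Tubb3 at 7.42 to 8.28 FPKM and Syn1 at 5.29 to 5.83 FPKM in siControl, whereas Map2 was at 0 in siControl and Chat was at 0 in all libraries. The 10 neuron markers summed to 13.2 to 14.1 FPKM in siControl and to 17.6 to 18.5 FPKM in siControl+DFO, and Tubb3, at 11.8 to 13.6 FPKM there, was the marker that differed, with Syn1 at 4.89 to 5.79 FPKM. In siNCOA4 cells the neuron sums overlapped, at 9.59 to 12.6 FPKM without and 11.03 to 13.9 FPKM with DFO. Most genes that define mature neurons were therefore near 0 in this line. All 4 fibroblast markers were listed, with a summed level of 1282 to 1574 FPKM in siControl, 728 to 930.1 FPKM in siNCOA4, 347 to 464 FPKM in siControl+DFO and 394 to 481 FPKM in siNCOA4+DFO. The 4 microglia markers summed to 9.98 to 11.8 FPKM in siControl, 3.79 to 5.60 FPKM in siNCOA4, 0.99 to 1.68 FPKM in siControl+DFO and 0.46 to 2.01 FPKM in siNCOA4+DFO, nearly all of it Tmem119 in siControl, while P2ry12 was at 0 in all libraries. These sums were thus lower with DFO. The 4 astrocyte markers summed to 0.34 to 0.45 FPKM in siControl, 0.82 to 1.14 FPKM in siNCOA4, 0.67 to 1.35 FPKM in siControl+DFO and 2.85 to 3.26 FPKM in siNCOA4+DFO, mostly Aldh1l1. The neural progenitor sum was nearly all Vim, at 1546 to 1662 FPKM in siControl, 1327 to 1407 FPKM in siNCOA4, 1356 to 1453 FPKM in siControl+DFO and 1169 to 1226 FPKM in siNCOA4+DFO, with Sox2 and Pax6 at 0. Oligodendrocyte markers summed to at most 1.47 FPKM in any library. Small RNA genes took 38.0 to 41.3% of the summed FPKM in siControl, 36.4 to 40.9% in siNCOA4, 42.2 to 46.0% in siControl+DFO and 48.1 to 52.4% in siNCOA4+DFO. Relative depth, read from the steps of low FPKM values, spanned 1.52-fold between libraries, and the read totals are unknown.

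Most of the 9 genes were lower with DFO, whichever siRNA the cells had received. In siControl+DFO relative to siControl, 7 of the 9 fell at an adjusted p below 0.05, beside 25.7% of the 11924 genes tested, and none rose, beside 27.7% of all genes. In siNCOA4+DFO relative to siNCOA4, 8 of the 9 fell, beside 19.6% of all genes, and none rose, beside 23.1%. These comparisons contrast different libraries but share an estimate of spread, fitted for each gene over all 12 libraries. The declines were moderate. The median log2 change of the 9 genes was -0.40 in siControl cells, where that of all genes was -0.01, and -0.49 in siNCOA4 cells, where that of all genes was -0.0035. No member passed both an adjusted p below 0.05 and a fold above 2, which 18.8% of all genes did with DFO in siControl cells and 11.4% in siNCOA4 cells. The fibroblast, microglia, astrocyte and Vim levels and the small RNA share given above moved with DFO in both siRNA backgrounds and the neuron sum in siControl cells, and their part in the decline was not tested. In bulk RNA, fewer cells of a type and less RNA per cell cannot be told apart.

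**Figure D1:**
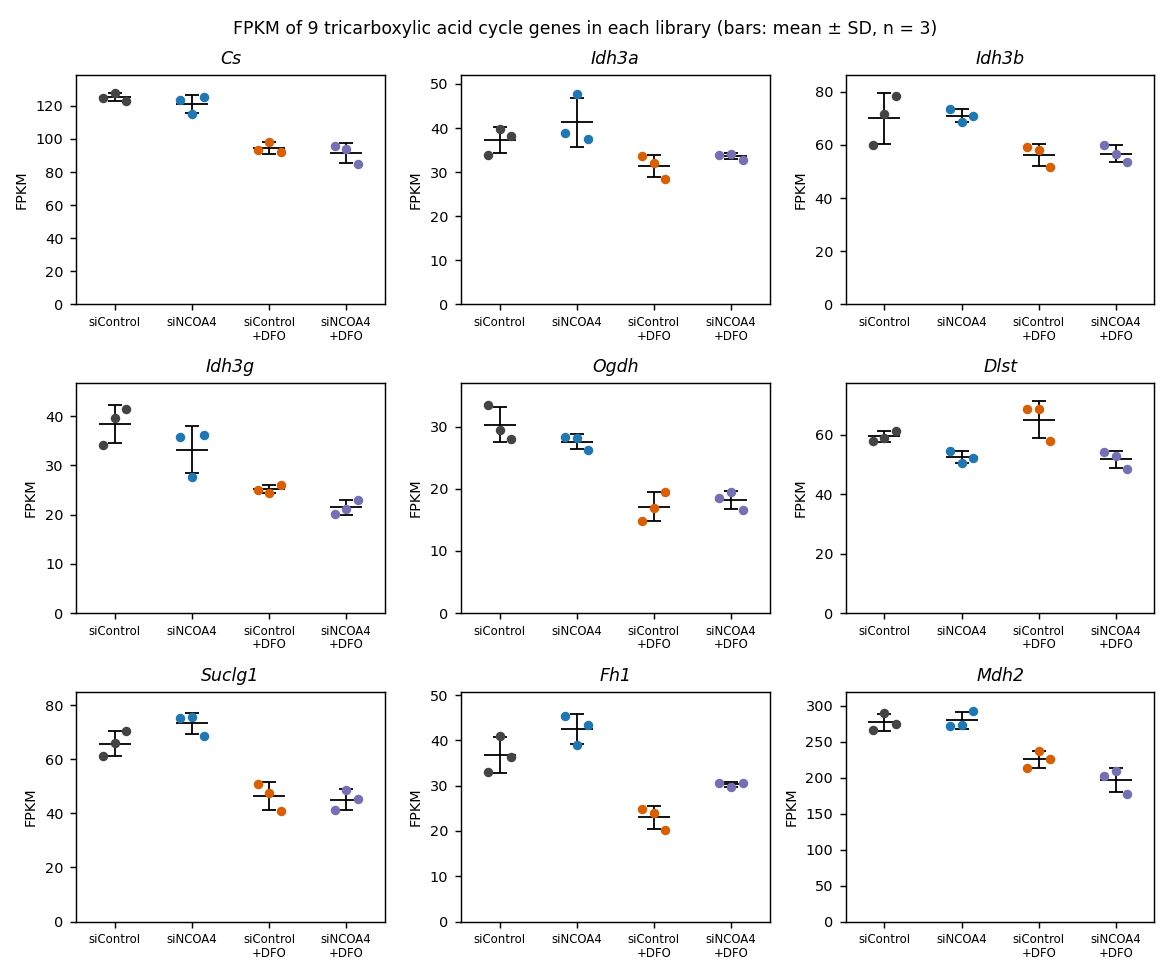
FPKM of each of the 9 genes (vertical axes, starting at 0) in the 3 libraries of each group (points), with the mean and SD as bars. In 8 of the 9 panels every DFO library lies below every library of the same siRNA without DFO, beside 29.6% of all genes in siControl and 25.1% in siNCOA4 cells, and Dlst is the exception.

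In siControl the 9 levels spanned from Ogdh at 30.3 FPKM ± 2.82 (SD, n = 3) to Mdh2 at 277 FPKM ± 11.9. Cs followed Mdh2 at 125 FPKM ± 2.27, and neither overlapped its neighbour in the order. Idh3b (70.0 FPKM ± 9.41), Suclg1 (65.8 FPKM ± 4.70) and Dlst (59.5 FPKM ± 1.73) formed a middle tier in which each overlapped the next. Idh3g (38.5 FPKM ± 3.83), Idh3a (37.3 FPKM ± 3.01) and Fh1 (36.7 FPKM ± 4.0) overlapped one another, and Fh1 overlapped Ogdh. Ogdh was lowest and Mdh2 highest in all 4 groups. With DFO and the control siRNA, Dlst lay at 65.1 FPKM ± 6.13 and ranked above Idh3b and Suclg1. The 9 genes summed to 705 to 764 FPKM in siControl, 726 to 753 FPKM in siNCOA4, 562 to 607 FPKM in siControl+DFO and 513 to 566 FPKM in siNCOA4+DFO. The sums without DFO did not overlap those with DFO.

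Cs encodes citrate synthase, which joins acetyl-CoA to oxaloacetate (chromosome 10, 128337734 to 128362479, plus strand, mm10). It lay at 125, 128 and 123 FPKM in siControl, 123, 115 and 125 FPKM in siNCOA4, 93.4, 98.4 and 91.9 FPKM in siControl+DFO, and 95.9, 93.9 and 84.7 FPKM in siNCOA4+DFO. Every DFO library was below every library without DFO, and the siRNAs overlapped. Cs fell by 24.5% with DFO in both siRNA backgrounds on the log2(FPKM + 0.1) scale, with a log2 change of -0.40 (SE 0.07, limma adjusted p = 0.000313) in siControl cells and -0.41 (SE 0.07, adjusted p = 0.00045) in siNCOA4 cells. Of the 75-base windows of its longest coding transcript, 0.807% also occur in Csl, a citrate synthase-like gene, and its reads could be shared there to that extent.

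Mdh2, at the other end of the cycle, encodes the mitochondrial malate dehydrogenase that restores oxaloacetate (chromosome 5, 135778480 to 135790398, plus strand). Its levels were 267, 290.1 and 274 FPKM in siControl, 272, 274 and 292 FPKM in siNCOA4, 214, 237 and 226 FPKM in siControl+DFO, and 202, 209.8 and 178 FPKM in siNCOA4+DFO. The lowest libraries were those of siNCOA4+DFO, all of them below siControl+DFO. Mdh2 fell with DFO by 0.30 on the log2 scale in siControl cells (SE 0.08, limma adjusted p = 0.00737) and by 0.51 in siNCOA4 cells (SE 0.08, adjusted p = 0.000273). The difference between those 2 declines was -0.21 (SE 0.11, adjusted p = 0.354) and did not pass.

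The 3 subunits of NAD-dependent isocitrate dehydrogenase, which converts isocitrate to 2-oxoglutarate, had estimated changes of different size. Idh3a carries the catalytic subunit (chromosome 9, 54586334 to 54604661, plus strand), and Idh3b (chromosome 2, 130279309 to 130284547, minus strand) and Idh3g (chromosome X, 73778963 to 73786897, minus strand) the other subunits. Idh3g and Idh3b fell in both DFO comparisons, and Idh3a passed the test in siNCOA4 cells.

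Idh3g lay at 34.2, 39.7 and 41.5 FPKM in siControl, 35.8, 27.7 and 36.1 FPKM in siNCOA4, 25.0, 24.4 and 26.0 FPKM in siControl+DFO, and 20.1, 21.2 and 23.0 FPKM in siNCOA4+DFO. The DFO libraries lay below all others, and those of siNCOA4+DFO were lowest. Idh3g fell by 34.4% with DFO in siControl cells (log2 change -0.61, SE 0.11, limma adjusted p = 0.000602) and by 34.9% in siNCOA4 cells (log2 change -0.62, SE 0.11, adjusted p = 0.000742).

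Idh3b lay at 59.9, 71.5 and 78.5 FPKM in siControl, 73.5, 68.6 and 70.8 FPKM in siNCOA4, 59.1, 58.2 and 51.6 FPKM in siControl+DFO, and 60.0, 56.6 and 53.5 FPKM in siNCOA4+DFO. The siControl libraries were spread widely, and the lowest of them, 59.9 FPKM, was close to the highest siControl+DFO library, 59.1 FPKM. The log2 change with DFO was -0.31 in siControl cells (SE 0.10, limma adjusted p = 0.0179) and -0.32 in siNCOA4 cells (SE 0.10, adjusted p = 0.0173). Without siControl replicate 2, siControl replicate 3 or siControl+DFO replicate 3, the first adjusted p was 0.0559, 0.0841 and 0.0766, with the compared groups alone it was 0.0526, and without siNCOA4 replicate 1 or siNCOA4+DFO replicate 3 the second was 0.058 and 0.053. A share of 0.146% of its exonic bases overlaps Nop56 on the opposite strand.

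Idh3a lay at 34.0, 39.9 and 38.1 FPKM in siControl, 38.8, 47.7 and 37.5 FPKM in siNCOA4, 33.6, 32.0 and 28.5 FPKM in siControl+DFO, and 33.9, 34.1 and 32.8 FPKM in siNCOA4+DFO. The siControl and siControl+DFO libraries did not overlap, though 34.0 and 33.6 FPKM nearly met. The log2 change with DFO was -0.25 in siControl cells (SE 0.10, limma adjusted p = 0.0543), short of the threshold, and -0.29 in siNCOA4 cells (SE 0.10, adjusted p = 0.0356). The first passed without siControl replicate 1 (0.0299), siNCOA4 replicate 2 (0.0273) or siControl+DFO replicate 1 (0.0466) and with quantile scaling (0.00731) or scaling without small RNAs (0.0249). The second did not pass without siNCOA4 replicate 2, the library at 47.7 FPKM (log2 change -0.18, adjusted p = 0.152), or without siNCOA4+DFO replicate 1, 2 or 3 (0.0708, 0.0677 and 0.0781), nor with untrended moderation (0.0582) or the compared groups alone (0.056).

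Ogdh and Dlst encode the first and second components of the 2-oxoglutarate dehydrogenase complex, which makes succinyl-CoA, and only the first of them fell with DFO. Ogdh, the thiamine-dependent E1 component (chromosome 11, 6291633 to 6356642, plus strand), showed the largest decline of the 9 genes in siControl cells. Dlst, the lipoyl-bearing E2 component (chromosome 12, 85110833 to 85134845, plus strand), did not pass in either DFO comparison. The windows around their start sites, 250 bases before to 50 after, are shown because Ogdh fell with DFO and Dlst did not pass, together with that of Fh1, which fell in both DFO comparisons. They are RefSeq sequences of build GRCm38.p6, and capitals mark ACGTG or GCGTG on either strand, the core letters of the hypoxia response element.
Ogdh, chr11:6291347-6291646, plus strand: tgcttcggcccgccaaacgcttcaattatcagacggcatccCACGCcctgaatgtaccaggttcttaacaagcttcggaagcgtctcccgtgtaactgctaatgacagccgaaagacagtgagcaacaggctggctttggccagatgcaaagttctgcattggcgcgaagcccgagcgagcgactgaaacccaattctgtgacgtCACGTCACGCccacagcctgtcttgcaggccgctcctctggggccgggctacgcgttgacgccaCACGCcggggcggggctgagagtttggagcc
Dlst, chr12:85110583-85110882, plus strand: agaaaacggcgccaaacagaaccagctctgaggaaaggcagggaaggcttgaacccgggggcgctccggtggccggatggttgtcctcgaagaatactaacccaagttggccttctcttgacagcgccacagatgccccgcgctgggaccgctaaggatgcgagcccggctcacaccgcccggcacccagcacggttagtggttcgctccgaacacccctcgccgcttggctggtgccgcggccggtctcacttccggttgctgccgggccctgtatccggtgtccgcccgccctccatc
Fh1, chr1:175625586-175625885, minus strand: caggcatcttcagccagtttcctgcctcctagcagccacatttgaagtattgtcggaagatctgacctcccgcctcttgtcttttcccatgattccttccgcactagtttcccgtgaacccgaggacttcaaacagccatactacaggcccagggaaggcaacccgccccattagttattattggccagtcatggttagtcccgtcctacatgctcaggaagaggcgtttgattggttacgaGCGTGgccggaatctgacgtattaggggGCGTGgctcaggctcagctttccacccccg
The Ogdh window, 1 of 6 annotated for the gene, held 4 matches, that of Fh1 2 and that of Dlst 0. These letters occur in 43.8% of all 32851 windows of this length and in 10 of the 13 windows of members. As 6 of those 13 windows belong to Ogdh, the window count weights that gene heavily. By gene, they occur in some window of 46.7% of 27025 genes and of 5 of the 8 members listed in the table (Idh3g, Ogdh, Suclg1, Fh1 and Mdh2). Cs and Idh3b, which fell with DFO, had no match. A match describes the letters and not a bound site.

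Ogdh lay at 33.5, 29.5 and 28.0 FPKM in siControl, 28.3, 28.2 and 26.2 FPKM in siNCOA4, 14.9, 16.9 and 19.5 FPKM in siControl+DFO, and 18.5, 19.5 and 16.7 FPKM in siNCOA4+DFO. The highest DFO library was well below the lowest library without DFO. Ogdh fell by 43.6% with DFO in siControl cells (log2 change -0.83, SE 0.11, limma adjusted p = 4.58e-05) and by 33.9% in siNCOA4 cells (log2 change -0.60, SE 0.11, adjusted p = 0.000826). The difference between the declines was 0.23 (SE 0.15, adjusted p = 0.471).

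Dlst lay at 58.0, 59.1 and 61.4 FPKM in siControl, 54.6, 50.6 and 52.2 FPKM in siNCOA4, 68.8, 68.6 and 58.1 FPKM in siControl+DFO, and 54.1, 52.7 and 48.7 FPKM in siNCOA4+DFO. Here the groups separated by siRNA and not by DFO, since every siNCOA4 library lay below every library that received the control siRNA. The log2 change with DFO was 0.13 in siControl cells (95% confidence interval -0.04 to 0.30, limma adjusted p = 0.194) and -0.02 in siNCOA4 cells (-0.19 to 0.15, adjusted p = 0.875). Without siControl+DFO replicate 3, the low library at 58.1 FPKM, the first value was 0.21 with an adjusted p of 0.0398.

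A further component of the complex and a paralog of Ogdh rose with DFO. Dld, the E3 component that this complex shares with pyruvate dehydrogenase, lay at 60.6, 69.1 and 65.0 FPKM in siControl and at 104.6, 99.0 and 96.7 FPKM in siControl+DFO, and rose by 0.63 on the log2 scale (SE 0.08, limma adjusted p = 4.47e-05). In siNCOA4 cells it rose by 0.24 (SE 0.08, adjusted p = 0.0342), and the interaction did not pass (-0.39, SE 0.12, adjusted p = 0.101). Ogdhl, a paralog of Ogdh that encodes a similar E1 component, lay at 18.2, 16.7 and 18.1 FPKM in siControl, 16.8, 15.1 and 17.8 FPKM in siNCOA4, 23.2, 27.4 and 30.2 FPKM in siControl+DFO, and 29.7, 32.4 and 29.7 FPKM in siNCOA4+DFO. It rose with DFO by 0.60 in siControl cells (SE 0.10, adjusted p = 0.000361) and by 0.88 in siNCOA4 cells (SE 0.10, adjusted p = 2.85e-05). Ogdh therefore exceeded Ogdhl in each library without DFO, and Ogdhl exceeded Ogdh in each library with it. No 75-base window of the longest coding Ogdh transcript occurred in another gene.

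**Figure D2:**
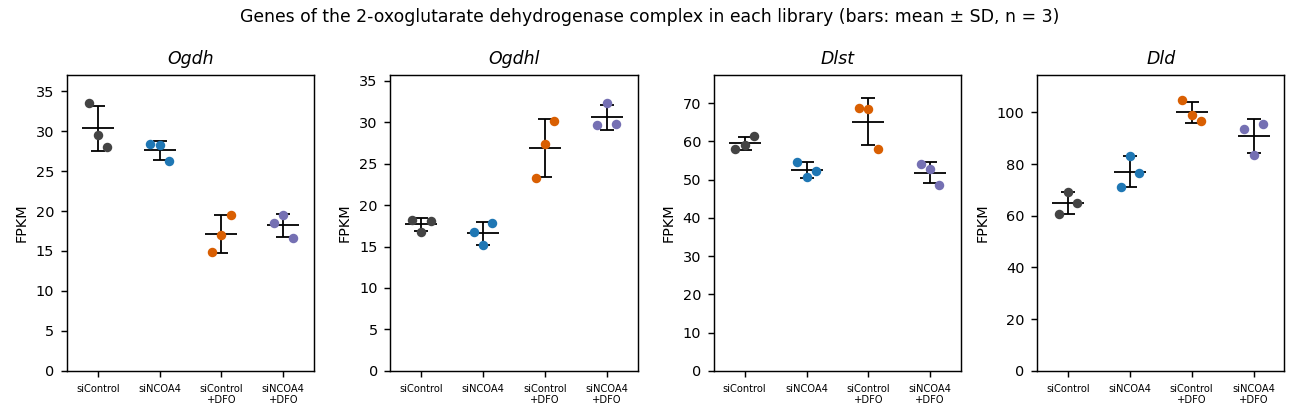
FPKM of the genes of the 2-oxoglutarate dehydrogenase complex (vertical axes, starting at 0) in each library (points), with mean and SD as bars. Ogdh is lower and Ogdhl and Dld are higher with DFO, and Dlst is lower in both siNCOA4 groups.

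Suclg1 encodes the alpha subunit that both forms of succinyl-CoA ligase share (chromosome 6, 73248382 to 73276911, plus strand). It lay at 61.1, 65.9 and 70.5 FPKM in siControl, 75.4, 75.8 and 68.7 FPKM in siNCOA4, 50.8, 47.6 and 40.8 FPKM in siControl+DFO, and 41.4, 48.8 and 45.1 FPKM in siNCOA4+DFO. The DFO libraries of both siRNAs overlapped each other and lay below the rest. Suclg1 fell by 29.6% with DFO in siControl cells (log2 change -0.51, SE 0.10, limma adjusted p = 0.000763) and by 38.5% in siNCOA4 cells (log2 change -0.70, SE 0.10, adjusted p = 0.000101), the largest decline of the 9 genes there.

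Fh1 encodes fumarase, which hydrates fumarate to malate (chromosome 1, 175600374 to 175625635, minus strand). It lay at 33.0, 40.9 and 36.3 FPKM in siControl, 45.4, 38.9 and 43.3 FPKM in siNCOA4, 24.9, 24.0 and 20.2 FPKM in siControl+DFO, and 30.5, 29.7 and 30.7 FPKM in siNCOA4+DFO. The lowest libraries were those of siControl+DFO, and siNCOA4+DFO lay between them and the libraries without DFO. Fh1 fell by 37.2% with DFO in siControl cells (log2 change -0.67, SE 0.10, limma adjusted p = 0.000138) and by 28.6% in siNCOA4 cells (log2 change -0.49, SE 0.10, adjusted p = 0.00212).

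**Figure D3:**
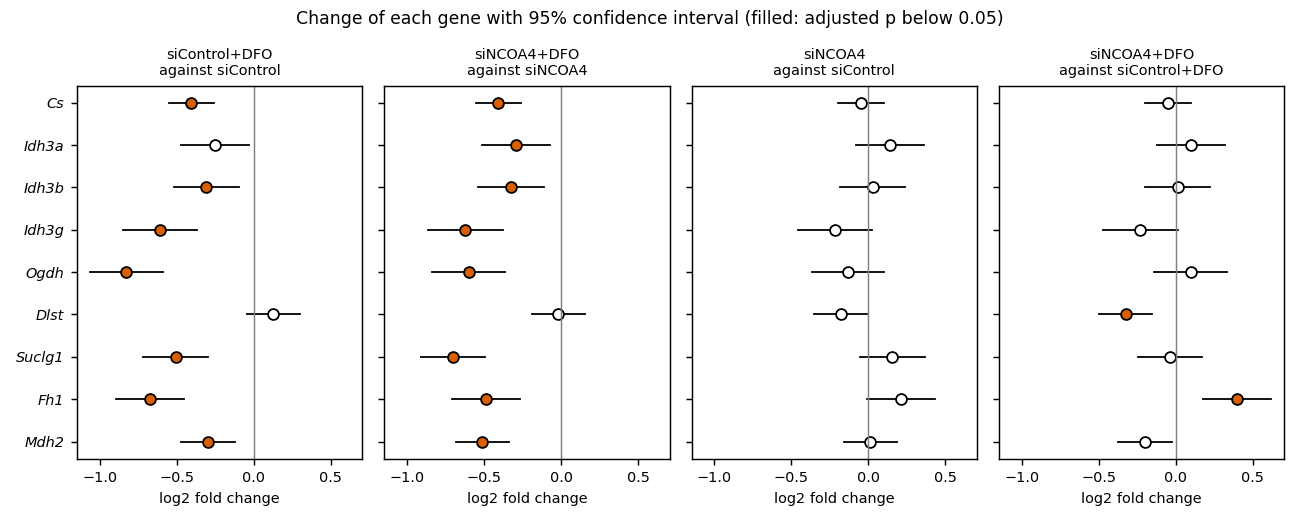
Log2 fold change of each gene (horizontal axis) with its 95% confidence interval in 4 comparisons, filled where the limma adjusted p was below 0.05. With DFO, 7 genes lie to the left of 0 and pass in siControl cells and 8 in siNCOA4 cells, and with siNCOA4 alone none passes.

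The comparison of siNCOA4 with siControl asks whether Ncoa4 knockdown without DFO changes these transcripts. None of the 9 passed in siNCOA4 relative to siControl, beside 7.21% of all genes lower and 4.52% higher by limma, and 1 (Dlst) had an unadjusted p below 0.05. The median log2 change was 0.01, and the changes ran from -0.22 for Idh3g (SE 0.11, adjusted p = 0.239) to 0.21 for Fh1 (SE 0.10, adjusted p = 0.205). Dlst, with a log2 change of -0.18 (95% confidence interval -0.35 to -0.01, adjusted p = 0.168), was the only member whose siNCOA4 and siControl libraries did not overlap, beside 32.6% of all genes. No member passed with a fold above 2, which 1.78% of all genes did. This comparison and that of siControl+DFO with siControl use the same siControl libraries.

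With DFO present, 1 member was lower and 1 higher with siNCOA4, shares close to those of all genes. In siNCOA4+DFO relative to siControl+DFO, Dlst fell by 20.2% (log2 change -0.33, SE 0.08, limma adjusted p = 0.0155), beside 10.2% of all genes lower, and Fh1 rose by 31.9% (log2 change 0.40, SE 0.10, adjusted p = 0.0195), beside 6.22% of all genes higher. Mdh2 (log2 change -0.20, adjusted p = 0.105) and Idh3g (-0.23, adjusted p = 0.176) did not pass. The libraries of 4 members, these 2 with Dlst and Fh1, did not overlap, beside 34.8% of all genes. None of the 9 passed with a fold above 2, as 2.09% of all genes did. Dlst did not pass without siControl+DFO replicate 1 (0.0595) or replicate 2 (0.0651), without siNCOA4+DFO replicate 3 (0.0531), with quantile scaling (0.0905), with the FPKM scaled to the sum without small RNAs (0.0867), or with the compared groups alone (0.067). Fh1 did not pass without siControl+DFO replicate 3 (0.0706) or siNCOA4+DFO replicate 3 (0.0532). Scaling without small RNAs moved the median of all genes in this comparison to 0.12, whereas that of the deposited values was -0.0062.

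The effect of DFO was not shown to depend on the siRNA for any member. The interaction, the siNCOA4 effect with DFO less that without, passed in 0 of the 9 by limma, with 0 at an unadjusted p below 0.05, beside 1.43% of all genes with a negative and 0.671% with a positive interaction. The estimates ran from -0.21 for Mdh2 (95% confidence interval -0.46 to 0.03) to 0.23 for Ogdh (-0.11 to 0.56), so differences of this size between the siRNAs lie within the error. For Dlst and Fh1 the interactions were -0.15 (-0.39 to 0.10) and 0.19 (-0.13 to 0.50).

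Both treatments together, siNCOA4+DFO relative to siControl, lowered 7 of the 9, beside 23.4% of all genes lower and 25.4% higher. Among them, Idh3g fell by 44.0% (log2 change -0.84, SE 0.11, limma adjusted p = 5.72e-05), followed by Ogdh at -0.73 (SE 0.11, adjusted p = 0.000141), Suclg1 at -0.54, Mdh2 at -0.50, Cs at -0.45, Idh3b at -0.30 (adjusted p = 0.0235) and Fh1 at -0.27 (adjusted p = 0.0424). Dlst had a log2 change of -0.20 (adjusted p = 0.0535) and Idh3a of -0.15 (adjusted p = 0.246). None had a fold above 2, as 15.2% of all genes did. Leaving out single libraries gave 5 to 8 members. Fh1 did not pass with scaling without small RNAs (log2 change -0.18, adjusted p = 0.146), with no filter (0.0573), with untrended moderation (0.065) or with the compared groups alone (0.0553), nor without siControl replicate 2 (0.172) or 3 (0.0809), siNCOA4 replicate 3 (0.0555), siControl+DFO replicate 2 (0.0509), or siNCOA4+DFO replicate 1, 2 or 3 (0.0792, 0.1002 and 0.0667). Idh3b did not pass with scaling without small RNAs (0.0719) or with the compared groups alone (0.066), nor without siControl replicate 2 (0.0704) or 3 (0.106) or siNCOA4+DFO replicate 2 (0.0549) or 3 (0.0716), and Dlst passed without siControl+DFO replicate 3 (0.0297).

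Ratios of FPKM between genes of a library do not depend on how that library was scaled. The ratios taken were between subunits of one enzyme, except that Sucla2 to Suclg2 compares the ATP-forming with the GTP-forming succinyl-CoA ligase. For 6 ratios, the effect of DFO within each siRNA and that of siNCOA4 within each DFO state were tested by a two-sided exact permutation test over the 12 libraries, with 400 arrangements, a smallest p of 0.005 and adjustment over the 12 tests. Of these, 6 passed. The ratio of Ogdh to Dlst was 0.578, 0.499 and 0.457 in siControl, 0.519, 0.558 and 0.503 in siNCOA4, 0.216, 0.247 and 0.337 in siControl+DFO, and 0.342, 0.370 and 0.343 in siNCOA4+DFO. It was 1.71-fold lower with DFO (log2 difference -0.77, exact permutation adjusted p = 0.015).

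Within isocitrate dehydrogenase, Idh3g lost ground to the other subunits. The ratio of Idh3b to Idh3g averaged 1.82 ± 0.07 (SD, n = 3) in siControl, 2.16 ± 0.28 in siNCOA4, 2.24 ± 0.23 in siControl+DFO and 2.66 ± 0.33 in siNCOA4+DFO. It was higher with DFO by 0.30 on the log2 scale (exact permutation adjusted p = 0.03) and with siNCOA4 by 0.24 (adjusted p = 0.03). Each of these calls was lost when any of 7 single libraries was left out, the 3 siControl libraries among them, with an adjusted p of 0.05 to 0.072. Over all single libraries left out, the differences ran from 0.26 to 0.35 for DFO and from 0.19 to 0.29 for siNCOA4. The ratio of Idh3a to Idh3g was higher with siNCOA4 by 0.35 (exact permutation adjusted p = 0.015) and with DFO by 0.35 (adjusted p = 0.06, short of the threshold). It reached 1.72 in siNCOA4 replicate 2, above 1.08 and 1.04 in the other siNCOA4 libraries, and the siNCOA4 call was lost without any 1 of the siControl libraries (adjusted p = 0.06 to 0.08). The ratio of Idh3a to Idh3b did not pass for DFO (0.05, adjusted p = 0.611) or siNCOA4 (0.10, adjusted p = 0.21).

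Suclg1 pairs with Suclg2 in the GTP-forming ligase and with Sucla2 in the ATP-forming one. The ratio of Suclg1 to Suclg2 was 2.58, 3.28 and 2.91 in siControl, 5.39, 5.23 and 5.07 in siNCOA4, 3.28, 3.78 and 2.64 in siControl+DFO, and 4.42, 5.53 and 3.95 in siNCOA4+DFO. The siNCOA4 libraries were above those of the control siRNA in each DFO state, and the ratio was 1.60-fold higher with siNCOA4 (log2 difference 0.68, exact permutation adjusted p = 0.015). The ratio of Sucla2 to Suclg2 was 1.46-fold higher (0.54, adjusted p = 0.015). Of the 3 genes Suclg2 alone passed in siNCOA4 relative to siControl, at 23.7, 20.1 and 24.2 FPKM in siControl and 14.0, 14.5 and 13.5 FPKM in siNCOA4 (log2 change -0.68, SE 0.12, limma adjusted p = 0.00392).

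**Figure D4:**
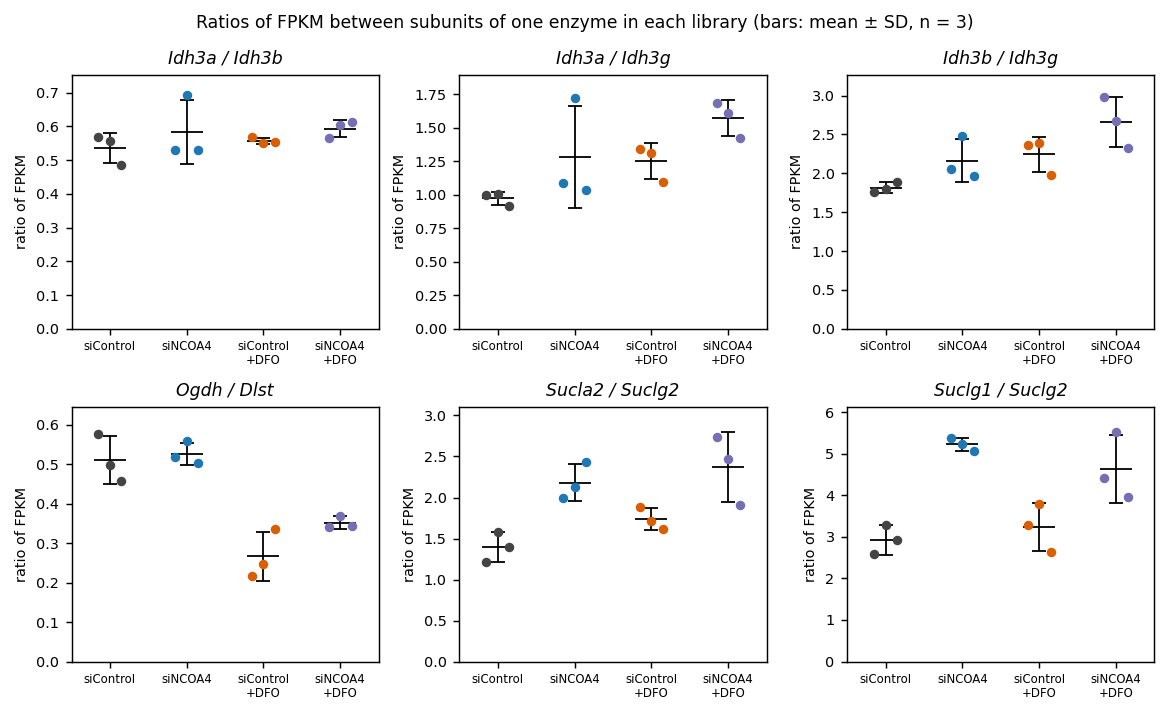
Ratio of FPKM between subunits of one enzyme (vertical axes, starting at 0) in each library (points), with mean and SD as bars. Sucla2 and Suclg2 belong to different forms of succinyl-CoA ligase. The ratio of Ogdh to Dlst is lower in all 6 DFO libraries, and both ratios over Suclg2 are higher with siNCOA4 than with siControl in each DFO state.

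Further enzymes of the cycle were for the most part lower with DFO too. Of 8 further genes, 6 fell and 1 rose with DFO in siControl cells, beside 25.7% and 27.7% of all genes, and 6 fell and 1 rose in siNCOA4 cells, beside 19.6% and 23.1%. Sdhc, a membrane anchor of succinate dehydrogenase, fell most, by 0.99 (SE 0.15, limma adjusted p = 0.000126), followed by Idh2, the NADP-dependent mitochondrial isocitrate dehydrogenase, by 0.83 (SE 0.08, adjusted p = 2.86e-06). Sdha, the flavoprotein subunit next to the step of Fh1, had a log2 change of -0.00026 (adjusted p = 0.998) in siControl cells and fell by 0.19 (SE 0.06, adjusted p = 0.0276) in siNCOA4 cells. It rose by 0.26 (SE 0.06, adjusted p = 0.0231) in siNCOA4 relative to siControl. Dld was the gene that rose.

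Most genes of cytosolic enzymes and citrate use fell with DFO as well. Of 7 cytosolic and citrate-using genes, 5 fell and 1 rose with either siRNA, beside the same shares of all genes. Idh1, the cytosolic NADP-dependent isocitrate dehydrogenase, lay at 71.0, 69.7 and 76.9 FPKM in siControl and at 25.5, 24.8 and 26.9 FPKM in siControl+DFO, a log2 change of -1.49 (SE 0.13, limma adjusted p = 1.34e-06). Slc25a1, which exports citrate from mitochondria, fell by 0.98, and Mdh1, the cytosolic counterpart of Mdh2, by 0.39 (SE 0.10, adjusted p = 0.00507). Got1, the cytosolic aspartate aminotransferase, rose by 0.93 (SE 0.11, adjusted p = 1.37e-05). Of 6 genes that feed carbon into the cycle, 3 rose and 1 fell in siControl+DFO, beside 27.7% of all genes higher and 25.7% lower. The 3 were Me2 (0.78), Glud1 (0.68), which supplies 2-oxoglutarate from glutamate, and Pck2 (0.41).

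**Figure D5:**
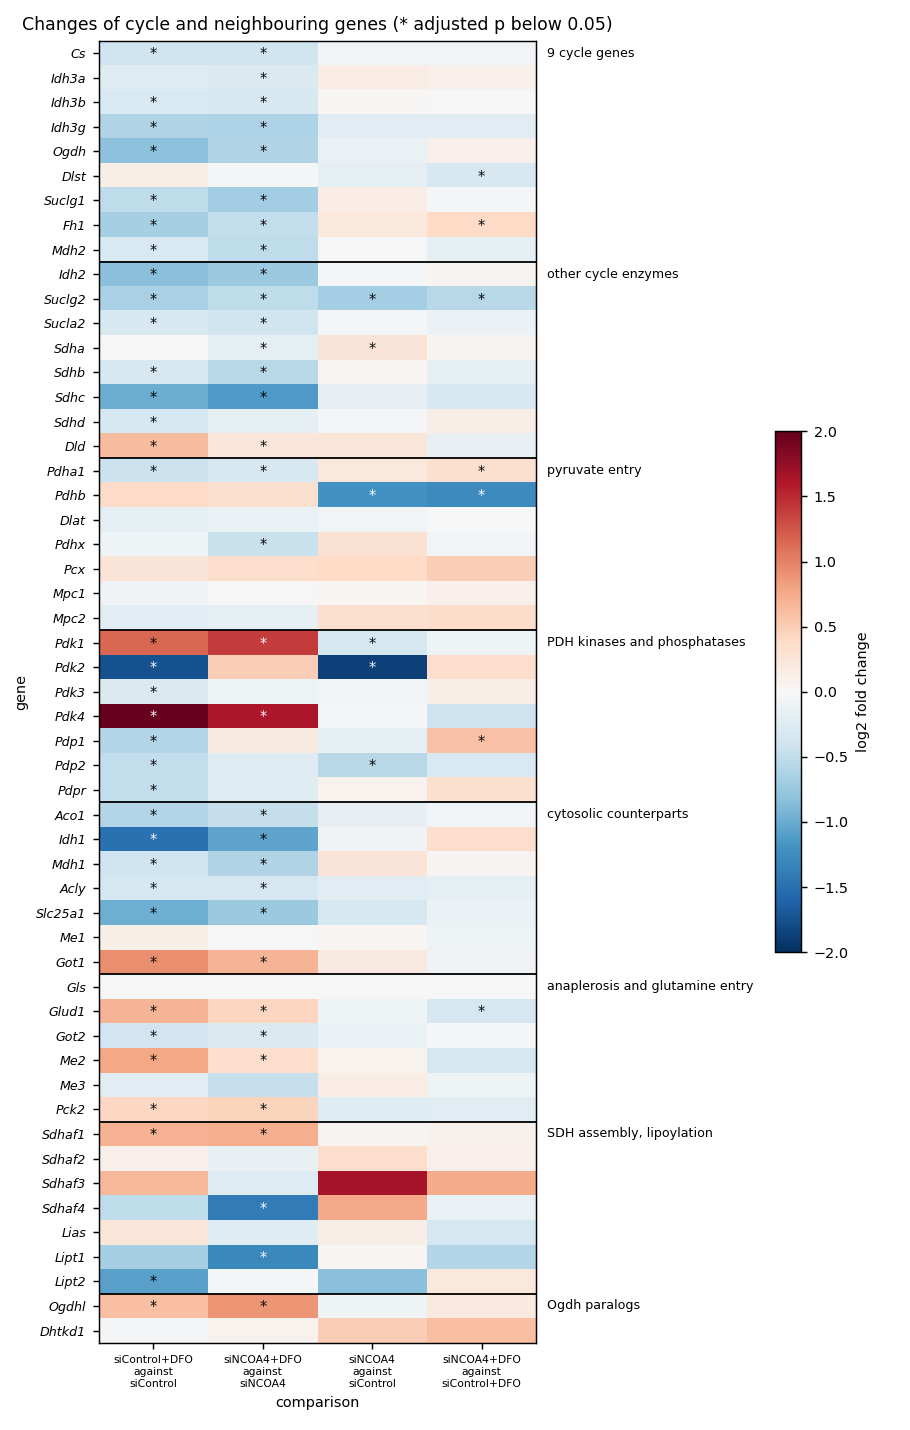
Log2 fold change (colour, limited to the range from -2 to 2) of the 9 genes and of related lists in 4 comparisons (columns), with an asterisk where the limma adjusted p was below 0.05. Most rows of both cycle lists are blue in the 2 DFO columns, whereas Dld, Ogdhl, Glud1, Me2 and Got1 are red there.

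Over the 12 libraries, 8 of the 9 genes followed one another. Pearson's r of a gene with the mean of the 9 standardised profiles, which includes the gene itself, was 0.77 for Idh3a to 0.97 for Cs, and 0.01 for Dlst. Dlst was the least like member for each of the other 8. Outside the 9, the most like genes were Prkcdbp (r = 0.984), Cdk2ap1 (0.982), Arhgdib (0.977), Hnrnpa2b1 (0.977) and Ccna2 (0.974), a cyclin of S and G2 phase. Ccna2 averaged 87.0 FPKM ± 2.29 (SD, n = 3) in siControl and 63.7 FPKM ± 2.59 in siControl+DFO. These values describe 4 groups, share their libraries and scaling, and carry no test.

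Other promoter letters were spread over the members without a common match. CCAAT occurred in windows of 4 of the 8 genes (Cs, Idh3b, Ogdh and Fh1), beside 41.1% of all genes, CCGGAAG, a site of ETS factors, in 3 (Idh3b, Idh3g and Dlst), beside 9.93%, and AAGGTCA, a site of estrogen-related receptors, in Ogdh alone, beside 5.38%. The NRF1 core GCGCATGCG occurred in Ogdh alone, beside 1.95%. Both strands were searched, and a gene counted if any of its windows held the letters.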

How the data were processed

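Per the labels, a stranded low-input kit was used on total RNA of HT22 cells. The authors deposited 1 FPKM table per library, 12 in all, each with 24347 gene entries. The submitters' processing notes name Trimmomatic 0.33, FastQC, HISAT2 2.1.0, featureCounts, edgeR and mm10. The annotation, filters and exact formula behind the FPKM are not given in the sources used here. The 4 entries that shared a name were left out. A value of 0 in every library was found for 6929 of the rest.

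FPKM keeps no read totals, so no counting interval can be given and no count test was used. Of low values above a per-gene step, 87.7% were whole multiples of it within a relative tolerance of 0.05. That tolerance grows with the multiple, so large multiples meet it easily. The filter asked for an FPKM of 0.5 or more in 3 or more libraries, and log2(FPKM + 0.1) was fitted with a means model over all 12 libraries in limma 3.58.1 (R 4.3.3), with empirical Bayes moderation and a trend (degrees of freedom: 8 residual, 4.07 prior). Benjamini-Hochberg adjustment was made over all 11924 genes within each comparison. The pseudocount compresses the changes of low genes. With 3 libraries against 3, a two-sided exact test of a single gene cannot go below 0.1. Genes were named by a rule: all 9 members, and from related lists the largest changes that passed in siControl+DFO relative to siControl and genes that mirror a member. The members and lists were chosen with earlier results of these data known. Alternatives were pseudocounts of 1 and 0.01, other filters and scalings, a replicate block, untrended moderation, a fit of the compared groups alone, and each library left out. Positions are from GENCODE on GRCm38. One gene of a related list is not reported here. Proteins, pathway analysis and other assays of the study were not analysed here. Python 3.11.15, numpy 2.4.6, pandas 2.3.3 and matplotlib 3.10.9 were used.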

Additional observations from a re-analysis of the deposited data

How the results depend on the processing

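Of 1179 values for single members under other settings, 1089 kept their direction and side of the threshold, 38 lost the call, 9 gained it and 43 changed sign. For the ratios these numbers were 144, 17, 4 and 3 of 168. Only values that passed in the report could lose a call, so the kept values include many with no call to lose. The count of members passing was 0 with siNCOA4 alone and for the interaction under every alternative, as in the report. Requiring a fold above 2 left 0 members in siControl+DFO and in siNCOA4+DFO relative to siControl, and 0 in siNCOA4+DFO relative to siControl+DFO and relative to siNCOA4. In siNCOA4+DFO relative to siControl+DFO, where 2 members passed, 1 passed with quantile scaling, 1 with scaling to the sum without small RNAs and 1 with the compared groups alone, and leaving out single libraries gave 0 to 2. Leaving out single libraries gave 6 to 8 members for DFO with either siRNA and 3 to 7 passing ratios, 3 without siControl replicate 2 or 3.

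Sign changes were of small values that did not pass. In siNCOA4 relative to siControl, Cs became 0.035 with scaling without small RNAs. In siNCOA4+DFO relative to siControl+DFO, quantile scaling and scaling without small RNAs gave 0.108 and 0.083 for Cs and 0.084 and 0.094 for Suclg1. For the interaction they gave 0.114 and 0.048 for Cs, 0.024 and 0.0092 for Idh3a, 0.070 and 0.032 for Idh3b, and 0.0072 and 0.037 for Idh3g. With single libraries left out, the siNCOA4 change ran from -0.079 to 0.116 for Idh3b and from -0.020 to 0.047 for Mdh2. The change under DFO ran from -0.084 to 0.0053 for Cs, from -0.050 to 0.052 for Idh3b, from -0.00035 to 0.196 for Ogdh and from -0.127 to 0.030 for Suclg1. The change of Dlst in siNCOA4+DFO relative to siNCOA4 ran from -0.050 to 0.026. The interaction ran from -0.039 to 0.053 for Cs, from -0.107 to 0.066 for Idh3a, from -0.105 to 0.090 for Idh3b and from -0.139 to 0.070 for Idh3g, and the DFO difference of the ratio of Suclg1 to Suclg2 from -0.093 to 0.044. The cause of these changes was not tested.

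No pairing of the samples by replicate number was detected, which does not exclude that same-numbered cultures were handled together. Over 18 same-numbered pairs, the correlation of deviations from the group means ran from -0.13 to 0.12, and 2 were over 0.1. With the replicate block, 8 members passed for DFO in siControl cells, with Idh3a at an adjusted p of 0.0461, and 8 in siNCOA4 cells. For both treatments together 6 passed, without Fh1 (0.0633), and 7 ratios passed, with that of Idh3a to Idh3g for DFO at 0.0171. The read depth is unknown, the fit has 3 libraries a group, and differences under about 0.2 on the log2 scale lie within the error of most members.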

Other observations

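Genes that regulate pyruvate dehydrogenase, through which pyruvate enters the cycle, changed with DFO in siControl cells. Of 7 kinases and phosphatases of pyruvate dehydrogenase, 2 rose and 5 fell, beside 27.7% of all genes higher and 25.7% lower. Pdk1, a kinase that inhibits the enzyme, lay at 16.7, 15.6 and 14.6 FPKM in siControl and at 35.5, 32.9 and 35.3 FPKM in siControl+DFO (log2 change 1.14, SE 0.10, limma adjusted p = 1.49e-06). Pdk4 rose from a mean of 0.64 to 2.83 FPKM (2.00, SE 0.26, adjusted p = 4.55e-05). Pdk2 (-1.74), Pdp1 (-0.59), Pdp2 (-0.50), Pdpr (-0.50) and Pdk3 (-0.29) fell. In siNCOA4 cells 2 rose with DFO, Pdk1 and Pdk4, and none of the 7 fell, beside 23.1% and 19.6% of all genes. Without DFO, 3 of the 7 were lower in siNCOA4 than in siControl and 0 higher, beside 7.21% and 4.52% of all genes. They were Pdk2 (-1.86), Pdp2 (-0.55) and Pdk1 (-0.35), and Pdk2 averaged only 0.39 FPKM in siNCOA4. The interaction passed for 0 of the 7, and 2 had an unadjusted p below 0.05.

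Of 7 genes for pyruvate entry, 1 fell and 0 rose with DFO in siControl cells, beside 25.7% of all genes lower and 27.7% higher. In siNCOA4 cells 2 fell and 0 rose with DFO, beside 19.6% and 23.1%. With siNCOA4 relative to siControl, 1 of the 7 fell and none rose, beside 7.21% of all genes lower and 4.52% higher. In siNCOA4+DFO relative to siControl+DFO, 1 fell and 1 rose, beside 10.2% and 6.22%. The gene that rose was Pdha1 (0.33, SE 0.08, limma adjusted p = 0.0178). Pdhb, the beta subunit of the E1 component of pyruvate dehydrogenase, lay at 41.9, 49.5 and 54.1 FPKM in siControl, 16.8, 19.3 and 27.4 FPKM in siNCOA4, 68.2, 61.9 and 60.0 FPKM in siControl+DFO, and 27.9, 23.6 and 26.7 FPKM in siNCOA4+DFO. With siNCOA4 its log2 change was -1.22 (SE 0.16, limma adjusted p = 0.000428) without DFO and -1.28 (adjusted p = 0.00045) with DFO. Only 1 siRNA condition for Ncoa4 is in these data, so an effect of its sequence and an effect of Ncoa4 loss cannot be told apart.

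Of 7 factors of mitochondrial biogenesis, 2 rose and 3 fell with DFO in siControl cells, beside 27.7% of all genes higher and 25.7% lower. Ppargc1b (-1.48), Ppargc1a (-1.38) and Nrf1 (-0.77) fell, and Esrra (1.30) and Tfb2m (0.53) rose. Ppargc1a, a coactivator of mitochondrial genes, lay at 3.50, 4.07 and 4.06 FPKM in siControl, 2.96, 2.79 and 1.94 FPKM in siNCOA4, 1.36, 1.37 and 1.54 FPKM in siControl+DFO, and 2.89, 2.19 and 3.01 FPKM in siNCOA4+DFO. Its interaction passed (1.46, SE 0.29, limma adjusted p = 0.0283). Of 7 genes for succinate dehydrogenase assembly and lipoylation, Sdhaf1 (0.70) rose and Lipt2 (-1.09) fell in siControl+DFO, a smaller share each way than over all genes.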
